A study of Arabidopsis thaliana with 15 samples.

Results

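In rosette leaves of Arabidopsis thaliana, single and double knockouts of the antiporter genes NHX5 and NHX6 shared 42 genes with mean transcript levels below wild type. The genes were chosen by limits on these differences, which were not tested for them. The mean difference was larger in the double knockouts for most of the 42. The rule that chose the genes set a deeper limit for the double knockouts, which favours that order. RNA quality and genotype could not be told apart in that order. A control signal that rises as RNA is degraded was higher on all double knockout and all wild type arrays than on all single knockout arrays. With that signal as a covariate, 0 of the 42 genes were called lower in the double than in the single knockouts (limma). The same fit called 0 of all 22746 probe sets lower, so the 0 is not particular to the 42. A gene was taken if its mean over the 3 arrays of a genotype lay at least 0.25 units under the wild type mean in both single knockouts and at least 0.4 units under it in both double knockouts. Of 13367 probe sets annotated to 1 nuclear gene, 50 met these limits. Of these, 8 were left out by name (AT1G06000, AT1G23205, AT3G09440, AT5G48490, CHIL, EXGT-A3, EXLA1 and HYH), which left 42 probe sets of 42 genes, 0.314% of the 13367. The rule used every genotype mean, so differences from wild type and between double and single knockouts are given as descriptions. Those from wild type carry no test for the 42 genes. Limma calls between knockouts are printed below, but the choice of the genes favours them. Nothing is read from their number among the 42.

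There were 15 arrays of ecotype Columbia, 3 labelled as biological replicates for each of 5 genotypes. The double knockout nhx5-1/nhx6-1 joins a WiscDsLox insertion in NHX5 with a SALK insertion in NHX6. The double knockout nhx5-2/nhx6-2 joins the alleles of both single knockouts, nhx5-2, a GABI T-DNA line, and nhx6-2, another SALK line. The reference was wild type. Plants of every group were 4 weeks old and grew on soil with 8 h of light and 16 h of dark, with weekly fertilizer. Single knockouts of nhx5-1 and nhx6-1 were not analysed here, so the step between single and double knockouts is measured on shared alleles for nhx5-2/nhx6-2 alone. Neither NHX5 nor NHX6 had a listed probe set, and the genotypes rest on the labels. The labels do not say whether replicates were separate plants, so p values measure the spread between these samples, which may be technical.

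NHX5 and NHX6 sit in the membranes of the Golgi, the trans-Golgi network and endosomes, where they exchange sodium or potassium ions for protons. By letting protons out they keep the lumen of these compartments from becoming too acidic, and the sorting of proteins to the vacuole depends on that pH. They can stand in for each other: plants that lack both are small, while plants that lack either alone look much like wild type.

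Values are in deposited units, on a log-like scale of unstated base. Spike-in RNAs, whose nominal amounts were assumed, rose by 0.681 ± 0.0281 units per doubling (SD over 15 arrays). On that assumption 1 unit stood for about 2.77-fold. Other spike-in probe sets gave 0.614 ± 0.0311 units per doubling, or 3.09-fold per unit. Fold values below use the first slope, rest on the assumed amounts and are approximate. The SD over all probe sets was 0.876 to 0.893 on 13 arrays, but 0.762 on nhx5-1/nhx6-1 replicate 3 and 0.797 on nhx5-2 replicate 1. RCA, the Rubisco activase gene and the 1 measured gene of 10 mesophyll markers, lay between 4.96 and 5.71 on all arrays. The root hair gene EXPA7, 1 measured of 3 root markers, lay between −0.68 and −0.26, and control probe sets without a target had medians between −0.81 and −0.57. In bulk leaves, fewer cells of a type and less RNA per cell cannot be told apart.

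The median difference of the 42 genes from wild type was −0.64 units in nhx5-1/nhx6-1, −0.67 in nhx5-2/nhx6-2, −0.34 in nhx5-2 and −0.40 in nhx6-2. Single genes ranged between −1.18 and −0.42 in nhx5-1/nhx6-1, between −1.26 and −0.40 in nhx5-2/nhx6-2, between −0.62 and −0.25 in nhx5-2, and between −0.75 and −0.25 in nhx6-2. Over all 13367 probe sets the median was 0.0057 in nhx5-1/nhx6-1, 0.00077 in nhx5-2/nhx6-2, 0.0014 in nhx5-2 and −0.0053 in nhx6-2. All 6 double knockout arrays lay below all 3 wild type arrays for 42 of the 42 genes (9.5% of all probe sets did), and all 6 single knockout arrays did so for 37 (3.87%). The choice of the genes gives these counts. The 5 genes whose single knockouts overlapped with wild type were AT2G47440, AT3G14395, AT3G02560, AT1G01320 and AT3G60320.

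**Figure D1:**
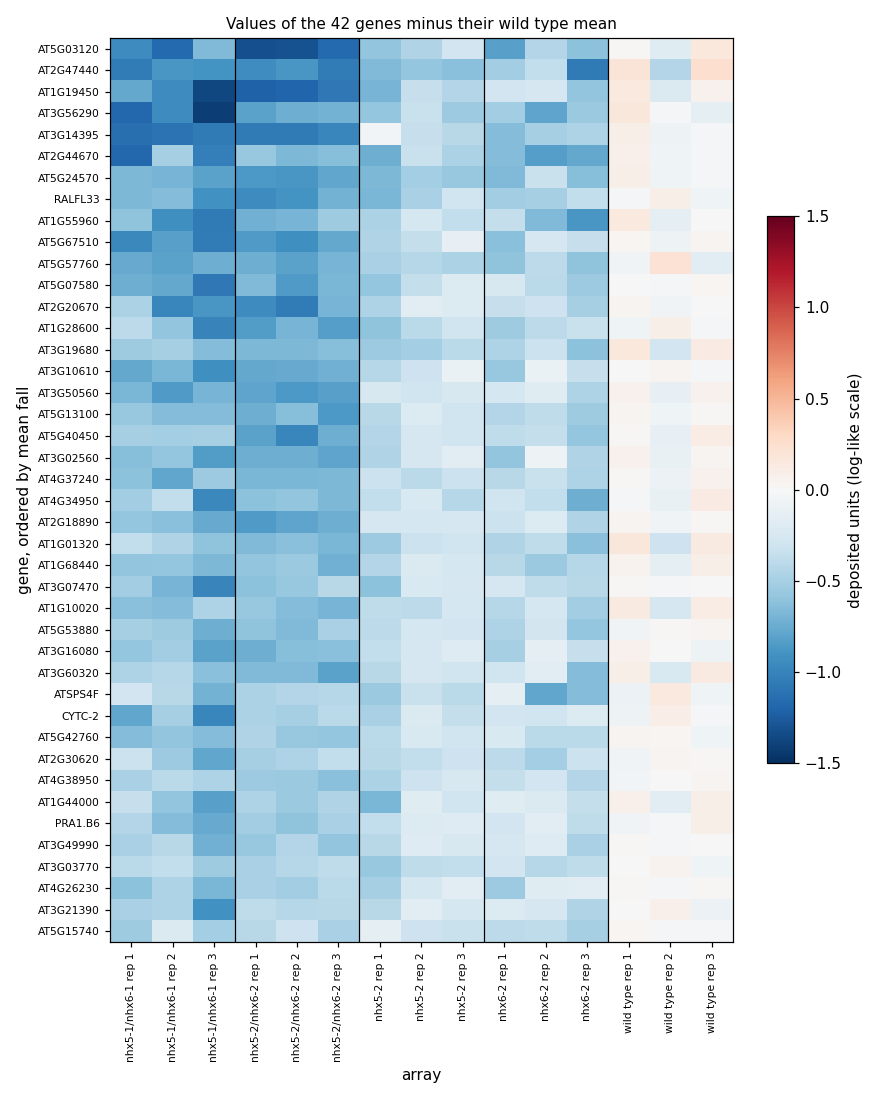
Deposited value minus the wild type mean (colour, in deposited units on a log-like scale) for the 42 genes (rows, ordered by mean difference over the 4 knockouts) on the 15 arrays (columns, by genotype). The median gene lies at −0.64 and −0.67 units in the double knockouts and at −0.34 and −0.40 in the single knockouts, and a few genes, such as ATSPS4F and AT3G03770, have nearly equal shades in all 4.

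The mean of both double knockouts minus the mean of both single knockouts is called the step below. Its median was −0.27 units over the 42 genes and 0.0024 over all probe sets. The limits of the rule were set on the same group means of the same arrays and differ by −0.15 units, so the choice of the genes favours a negative step. In a limma fit over all 22746 probe sets, 29 of the 42 genes were called lower in the double knockouts at an adjusted p under 0.05 and 0 higher, beside 7.83% lower and 7.08% higher of all probe sets. With the covariate for RNA quality, 0 of the 42 and 0 of all probe sets were called lower. The probe sets as a whole were not chosen by such limits, and nothing is read from the count of 29 or from its distance to these shares. The step was beyond −0.15 for 35 genes and short of it for 7 (AT2G44670, AT3G19680, AT1G01320, ATSPS4F, AT2G30620, AT3G03770 and AT5G15740).

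Both double knockout means lay below both single knockout means for 37 of the 42 genes (24.8% of all probe sets), the other 5 being AT2G44670, AT1G01320, ATSPS4F, AT3G03770 and AT5G15740. All 6 double knockout arrays lay below all 6 single knockout arrays for 15 genes (3.21%). The deeper limit for the double knockouts favours these counts too, and no test is made of them. At the median gene the single knockouts showed 57.2% of the difference from wild type that the double knockouts showed, with 35.7% for AT3G50560 as the lowest share and 103.6% for ATSPS4F as the highest. The difference of nhx5-2/nhx6-2 from wild type was smaller than the sum of those of nhx5-2 and nhx6-2 for 30 genes and larger for 12, a description that was not tested. The sum takes off the wild type mean once for each single knockout. Choice on low single knockout and high wild type means favours a difference smaller than the sum. The limit for the double knockout favours a larger one, and nothing is read from these counts.

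Transport and sugar metabolism were represented by 4 genes, with steps between −0.65 and 0.02 units. AT1G19450 codes for a sugar transporter of the vacuolar membrane. It had 2.02, 1.85 and 1.42 units in nhx5-1/nhx6-1, 1.57, 1.59 and 1.71 in nhx5-2/nhx6-2, 2.09, 2.43 and 2.34 in nhx5-2, 2.49, 2.53 and 2.20 in nhx6-2 and 2.93, 2.57 and 2.85 in wild type. Doubles, singles and wild type formed 3 levels without overlap. Relative to wild type it was about 2.82-fold lower in nhx5-1/nhx6-1, 3.25-fold in nhx5-2/nhx6-2, 1.66-fold in nhx5-2 and 1.47-fold in nhx6-2, and the step was −0.65 ± 0.10 units (SE). ATSPS4F, for a sucrose-phosphate synthase that makes the precursor of sucrose, had 1.89, 1.75 and 1.46 units in nhx5-1/nhx6-1, 1.70, 1.73 and 1.74 in nhx5-2/nhx6-2, 1.61, 1.84 and 1.76 in nhx5-2, 2.04, 1.39 and 1.52 in nhx6-2 and 2.09, 2.32 and 2.11 in wild type. All knockout arrays lay under the wild type arrays, and double and single knockouts overlapped, with a step of 0.02 ± 0.10. ATSPS4F met the rule neither without both arrays of low SD nor after quantile normalization, and leaving out either of 2 single arrays ended its membership. AT4G34950, of the major facilitator family of membrane transporters, and AT3G21390, of the mitochondrial carrier family, had steps of −0.22 ± 0.10 and −0.23 ± 0.08.

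Ribosome genes were the largest group of related function, put together after the values were seen. The measured ribosome genes were not counted, so no share of them stands beside the group, and nothing is read from its size. The group held AT5G67510, AT3G16080 and AT4G26230 for proteins of the large subunit, AT3G10610 and AT3G02560 for proteins of the small subunit, and AT3G49990, of a family needed to assemble the small subunit. AT5G67510 had 1.05, 1.21 and 0.97 units in nhx5-1/nhx6-1, 1.17, 1.10 and 1.26 in nhx5-2/nhx6-2, 1.58, 1.67 and 1.90 in nhx5-2, 1.40, 1.77 and 1.68 in nhx6-2 and 2.06, 1.95 and 2.06 in wild type. The double knockouts lay below every single knockout array, and these below wild type, with a step of −0.54 ± 0.07. AT3G10610 had means of 0.98 ± 0.12 in nhx5-1/nhx6-1, 1.02 ± 0.02 in nhx5-2/nhx6-2, 1.49 ± 0.17 in nhx5-2, 1.43 ± 0.23 in nhx6-2 and 1.77 ± 0.03 in wild type (SD, n = 3 each). Its groups were ordered in the same way, and its step was −0.46 ± 0.07. The steps of the others were −0.38 ± 0.08 for AT3G02560, −0.35 ± 0.06 for AT3G16080, −0.24 ± 0.06 for AT3G49990 and −0.23 ± 0.07 for AT4G26230.

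The ribosome genes lay near the limit of −0.25 units in nhx5-2. Their differences from wild type were between −0.31 and −0.27 units in nhx5-2 and between −0.41 and −0.29 in nhx6-2. Without nhx5-2 replicate 1, one of the arrays of low SD, those of nhx5-2 were between −0.24 and −0.20, short of the limit. Of the 15 arrays left out in turn, 1 ended membership for AT5G67510 and AT3G02560, 2 for AT3G10610, AT3G49990 and AT4G26230, and 3 for AT3G16080. None of the 6 met the rule without both arrays of low SD, and 1 of the 6, AT3G49990, met it after quantile normalization. In nhx6-2, replicate 1 was the lowest array for all 5 ribosomal protein genes. AT3G02560, for example, had 2.04, 2.08 and 1.83 units in nhx5-1/nhx6-1, 1.94, 1.94 and 1.88 in nhx5-2/nhx6-2, 2.21, 2.42 and 2.51 in nhx5-2, 2.08, 2.59 and 2.22 in nhx6-2 and 2.74, 2.56 and 2.71 in wild type, so that nhx6-2 replicate 2 reached into the wild type values.

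There were 5 genes of the cell surface, wall and kinases, with steps between −0.43 and −0.032 units. RALFL33 codes for a small secreted peptide of the rapid alkalinization factor family, whose members are perceived by receptor kinases and raise the pH of the wall space. It had 0.95, 0.98 and 0.71 units in nhx5-1/nhx6-1, 0.68, 0.73 and 0.91 in nhx5-2/nhx6-2, 0.93, 1.14 and 1.32 in nhx5-2, 1.09, 1.13 and 1.25 in nhx6-2 and 1.60, 1.71 and 1.56 in wild type. All knockout arrays lay below wild type, and those of nhx5-1/nhx6-1 overlapped with nhx5-2 replicate 1. Its step was −0.32 ± 0.07. AT2G18890, a protein kinase gene, had −0.085, −0.13 and −0.26 units in nhx5-1/nhx6-1, −0.36, −0.29 and −0.24 in nhx5-2/nhx6-2, 0.24, 0.23 and 0.25 in nhx5-2, 0.17, 0.29 and 0.049 in nhx6-2 and 0.54, 0.44 and 0.51 in wild type. Doubles, singles and wild type did not overlap, and the step was −0.43 ± 0.04.

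AT1G28600, of the GDSL lipase family, had a step of −0.30 ± 0.09. The receptor kinase family gene AT3G03770, with leucine-rich repeats, had means of 0.48 ± 0.09 in nhx5-1/nhx6-1, 0.49 ± 0.05 in nhx5-2/nhx6-2, 0.48 ± 0.11 in nhx5-2, 0.55 ± 0.07 in nhx6-2 and 0.92 ± 0.05 in wild type (SD, n = 3 each). Its 4 knockouts overlapped below wild type, and the step was −0.03 ± 0.05. AT5G15740, for an enzyme of pectin synthesis, had 0.069, 0.39 and 0.093 units in nhx5-1/nhx6-1, 0.19, 0.29 and 0.12 in nhx5-2/nhx6-2, 0.45, 0.29 and 0.26 in nhx5-2, 0.22, 0.22 and 0.10 in nhx6-2 and 0.63, 0.59 and 0.59 in wild type. Here too the knockouts overlapped, with a step of −0.07 ± 0.06. AT5G15740 met the rule neither without both arrays of low SD nor after quantile normalization, and leaving out any of 7 single arrays ended its membership.

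**Figure D2:**
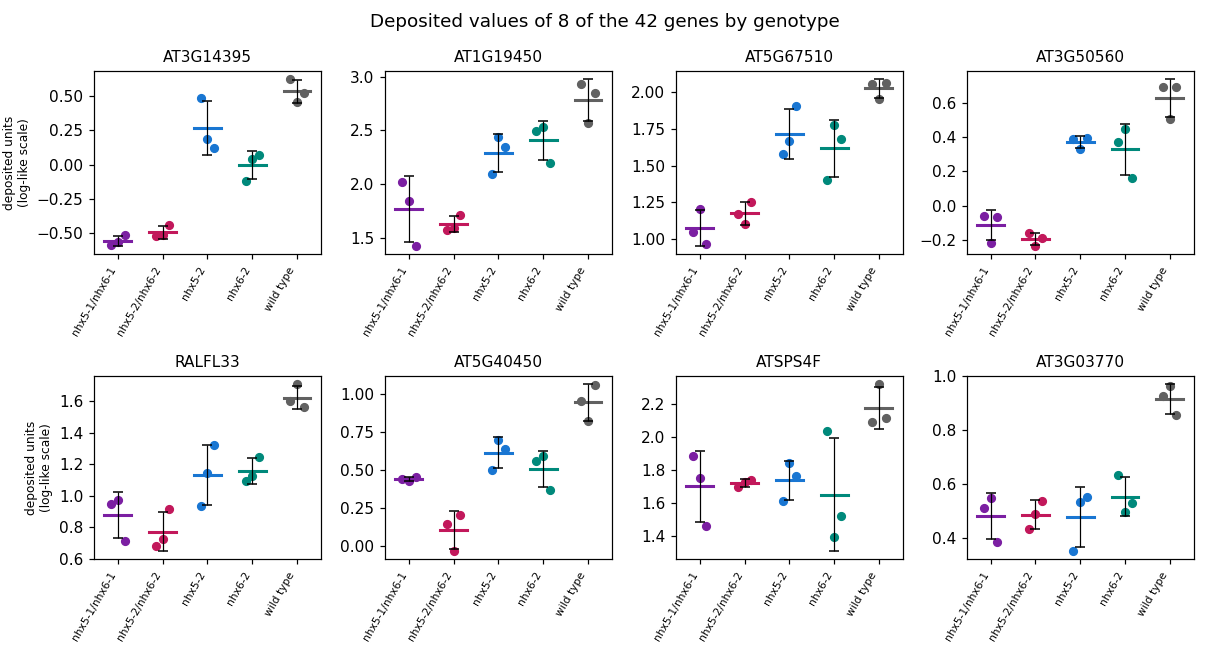
Deposited values (y axis, log-like units, a separate range in each panel) of selected genes by genotype. Points are arrays, coloured bars genotype means and black bars the SD over 3 arrays; AT1G19450 has a step of −0.65 units between single and double knockouts, and ATSPS4F one of 0.02.

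There were 3 genes tied to the vacuole, vesicle traffic or the cytoskeleton, with steps between −0.31 and −0.16 units. AT5G40450, for a very large protein with a known part in vacuole structure, had 0.44, 0.43 and 0.45 units in nhx5-1/nhx6-1, 0.14, −0.036 and 0.21 in nhx5-2/nhx6-2, 0.50, 0.69 and 0.64 in nhx5-2, 0.56, 0.59 and 0.37 in nhx6-2 and 0.96, 0.82 and 1.06 in wild type. The arrays of nhx5-2/nhx6-2 lay below all others, while those of nhx5-1/nhx6-1 overlapped with nhx6-2 replicate 3. The step was −0.29 ± 0.06. PRA1.B6, of a family of membrane proteins that bind RAB GTPases of vesicle traffic, had 0.033, −0.18 and −0.29 units in nhx5-1/nhx6-1, −0.046, −0.13 and −0.0089 in nhx5-2/nhx6-2, 0.11, 0.26 and 0.28 in nhx5-2, 0.18, 0.30 and 0.096 in nhx6-2 and 0.42, 0.44 and 0.56 in wild type. Its double and single knockouts did not overlap, and the step was −0.31 ± 0.06. AT4G38950, for a kinesin motor protein, had a step of −0.16 ± 0.04.

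A list of 20 genes of endosomal ion exchange and vacuolar sorting had 4 measured genes and 0 among the 42. Of these 4, 1 was lower in the double than in the single knockouts, VHA-A3 for a subunit of the proton pump of the vacuolar membrane (−0.23 units, adjusted p 0.038, limma). The related subunit gene VHA-A2 was higher (0.15 units, adjusted p 0.0152, limma). VHA-A1, for the subunit of the pump in the trans-Golgi network (0.011 units, adjusted p 0.916, limma), and ARA6, for an endosomal RAB GTPase (−0.012 units, adjusted p 0.946, limma), did not pass. For ARA6 this value joins unlike lines: arrays lay at 1.08 to 1.15 units in nhx5-2/nhx6-2 and at 0.38 to 0.93 in nhx5-1/nhx6-1. Wild type lay at 0.72 to 0.96. The difference between the double knockouts did not pass (adjusted p 0.161, limma). Of all probe sets 7.83% were called lower and 7.08% higher in this comparison. With the covariate for RNA quality 0 of all 22746 were called lower, VHA-A3 included, and 1 was called in all.

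Among genes of transcription and chromatin, AT5G07580, for a transcription factor of the ethylene response factor family, had 0.093, 0.058 and −0.25 units in nhx5-1/nhx6-1, 0.17, −0.029 and 0.14 in nhx5-2/nhx6-2, 0.25, 0.47 and 0.62 in nhx5-2, 0.58, 0.42 and 0.28 in nhx6-2 and 0.82, 0.80 and 0.85 in wild type. Doubles, singles and wild type were separate, and the step was −0.41 ± 0.08. AT2G30620, for a linker histone H1, had means of 1.85 ± 0.23 in nhx5-1/nhx6-1, 1.96 ± 0.07 in nhx5-2/nhx6-2, 2.04 ± 0.05 in nhx5-2, 1.99 ± 0.10 in nhx6-2 and 2.40 ± 0.04 in wild type (SD, n = 3 each). Its step was −0.11 ± 0.06. Of 3 genes of chloroplast and mitochondrion, CYTC-2 codes for the electron carrier cytochrome c. It had 0.47, 0.75 and 0.27 units in nhx5-1/nhx6-1, 0.77, 0.75 and 0.84 in nhx5-2/nhx6-2, 0.76, 1.03 and 0.89 in nhx5-2, 0.95, 0.95 and 1.04 in nhx6-2 and 1.16, 1.35 and 1.22 in wild type. The arrays of nhx5-1/nhx6-1 were the lowest and those of nhx5-2/nhx6-2 overlapped with nhx5-2, and the step was −0.30 ± 0.07.

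AT1G44000, related to the stay-green genes of chlorophyll breakdown, had a step of −0.22 ± 0.09 and AT1G01320, which has a part in how much of a cell the chloroplasts fill, one of −0.13 ± 0.08. AT1G01320 had 1.88, 1.81 and 1.65 units in nhx5-1/nhx6-1, 1.59, 1.63 and 1.57 in nhx5-2/nhx6-2, 1.71, 1.94 and 1.95 in nhx5-2, 1.80, 1.87 and 1.63 in nhx6-2 and 2.43, 1.95 and 2.38 in wild type. Wild type replicate 2 stood apart from the other wild type arrays and level with single knockouts. This was the 1 gene with a second probe set, where the differences were −0.039 in nhx5-1/nhx6-1, −0.078 in nhx5-2/nhx6-2, 0.036 in nhx5-2 and −0.033 in nhx6-2, with a wild type mean of −0.50, near the level without a target.

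For 9 genes only a domain family is stated, with steps between −0.51 and −0.13 units. AT3G50560, of a dehydrogenase family, had −0.06, −0.22 and −0.069 units in nhx5-1/nhx6-1, −0.16, −0.23 and −0.19 in nhx5-2/nhx6-2, 0.39, 0.33 and 0.40 in nhx5-2, 0.37, 0.45 and 0.16 in nhx6-2 and 0.69, 0.50 and 0.69 in wild type. The double knockouts were clear of all other arrays, with a step of −0.50 ± 0.05. AT2G20670, of a plant family of unknown function, had 0.62, 0.11 and 0.22 units in nhx5-1/nhx6-1, 0.15, 0.048 and 0.40 in nhx5-2/nhx6-2, 0.63, 0.94 and 0.89 in nhx5-2, 0.74, 0.78 and 0.60 in nhx6-2 and 1.14, 1.04 and 1.10 in wild type. Only nhx5-1/nhx6-1 replicate 1 reached the single knockouts, and the step was −0.51 ± 0.09. AT2G47440, for a protein with tetratricopeptide repeats, had 0.28, 0.45 and 0.42 units in nhx5-1/nhx6-1, 0.39, 0.45 and 0.27 in nhx5-2/nhx6-2, 0.66, 0.74 and 0.69 in nhx5-2, 0.80, 0.95 and 0.26 in nhx6-2 and 1.51, 0.88 and 1.58 in wild type. Wild type replicate 2 and nhx6-2 replicate 3 stood apart from their groups, and the step was −0.31 ± 0.12. AT2G44670, of a plant zinc finger family, had 1.02, 1.70 and 1.17 units in nhx5-1/nhx6-1, 1.62, 1.52 and 1.55 in nhx5-2/nhx6-2, 1.47, 1.86 and 1.72 in nhx5-2, 1.55, 1.36 and 1.42 in nhx6-2 and 2.28, 2.13 and 2.18 in wild type. Its 4 knockouts overlapped, and the step was −0.13 ± 0.10.

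AT1G55960, of a lipid-binding domain family, had a step of −0.26 ± 0.09 and AT3G19680, of another plant family of unknown function, one of −0.14 ± 0.07. AT1G10020, of the same family as AT3G19680, had a step of −0.24 ± 0.07. Both family members were lower on wild type replicate 2 than on the other wild type arrays, with 0.29, −0.10 and 0.26 for AT1G10020 and 0.62, 0.17 and 0.58 for AT3G19680. AT3G07470 and AT3G60320, of other families of unknown function, had steps of −0.27 ± 0.08 and −0.26 ± 0.08.

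No role is stated for 10 genes, with steps between −0.66 and −0.21 units. AT3G14395 had the largest step of the 42. It had −0.59, −0.57 and −0.52 units in nhx5-1/nhx6-1, −0.53, −0.52 and −0.44 in nhx5-2/nhx6-2, 0.49, 0.19 and 0.12 in nhx5-2, −0.12, 0.039 and 0.074 in nhx6-2 and 0.63, 0.46 and 0.52 in wild type. The double knockouts lay close to the level without a target and below every other array, and nhx5-2 replicate 1 lay within the wild type values. The step was −0.66 ± 0.06. AT5G03120 had the largest mean difference from wild type, with 0.13, −0.088 and 0.41 units in nhx5-1/nhx6-1, −0.24, −0.23 and −0.098 in nhx5-2/nhx6-2, 0.48, 0.63 and 0.79 in nhx5-2, 0.26, 0.63 and 0.46 in nhx6-2 and 1.09, 0.90 and 1.23 in wild type. The arrays of nhx5-2/nhx6-2 were the lowest, and nhx5-1/nhx6-1 replicate 3 overlapped with nhx6-2. Relative to wild type it was about 2.56-fold lower in nhx5-1/nhx6-1, 3.62-fold in nhx5-2/nhx6-2, 1.57-fold in nhx5-2 and 1.89-fold in nhx6-2, with a step of −0.56 ± 0.09.

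AT3G56290 had 2.13, 2.37 and 1.89 units in nhx5-1/nhx6-1, 2.50, 2.58 and 2.59 in nhx5-2/nhx6-2, 2.73, 2.97 and 2.76 in nhx5-2, 2.79, 2.52 and 2.75 in nhx6-2 and 3.47, 3.29 and 3.16 in wild type. Here nhx5-1/nhx6-1 lay below all other arrays and nhx5-2/nhx6-2 overlapped with nhx6-2, with a step of −0.41 ± 0.08. AT4G37240 was the dimmest of the 42, with −0.62, −0.78 and −0.55 units in nhx5-1/nhx6-1, −0.69, −0.70 and −0.68 in nhx5-2/nhx6-2, −0.33, −0.41 and −0.33 in nhx5-2, −0.43, −0.34 and −0.47 in nhx6-2 and 0.0098, −0.092 and 0.057 in wild type. Its double knockouts lay at the level without a target, which limits how low they could be read, and the step was −0.29 ± 0.04. The steps of the remaining genes without a stated role were −0.22 ± 0.06 for AT5G24570, −0.26 ± 0.06 for AT5G57760, −0.30 ± 0.05 for AT5G13100, −0.23 ± 0.05 for AT1G68440, −0.21 ± 0.06 for AT5G53880 and −0.25 ± 0.04 for AT5G42760.

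**Figure D3:**
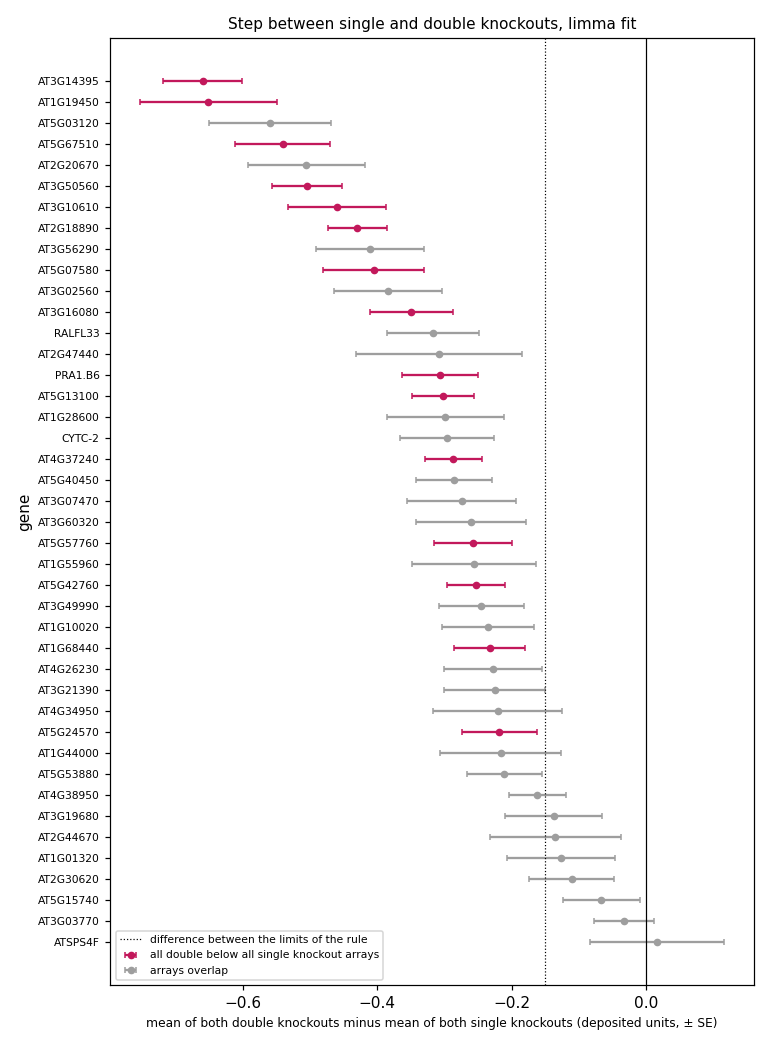
Mean of both double knockouts minus mean of both single knockouts (x axis, deposited units) for each of the 42 genes (y axis), with the standard error of the limma fit. Colour separates the 15 genes whose 6 double knockout arrays all lie below all 6 single knockout arrays and the other 27, and the dotted line at −0.15 is the difference between the limits of the rule.

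On shared alleles the step can be taken for each antiporter lost in addition. Between nhx5-2/nhx6-2 and nhx5-2, which differ in NHX6, the median difference of the 42 genes was −0.29 units, and 16 of them were called lower in the double knockout and 0 higher (limma, 2.69% and 2.76% of all probe sets). Between nhx5-2/nhx6-2 and nhx6-2, which differ in NHX5, the median was −0.24, and 13 were called lower and 0 higher (2.13% and 1.97%). The arrays did not overlap for 32 genes against nhx5-2 (13.4% of all probe sets) and for 27 against nhx6-2 (12.9%). All 13 were among the 16. The other 3 were AT3G02560 (−0.46 ± 0.11 units against nhx5-2), AT1G68440 (−0.32 ± 0.08) and AT4G38950 (−0.23 ± 0.06). The rule used these means as well, so nothing is read from the counts. With the covariate for RNA quality 0 and 0 of the 42 genes were called lower, beside 0 and 7 of all probe sets. Whether the steps differ is the comparison of nhx5-2 with nhx6-2 given below.

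The 13 genes were AT5G03120, AT1G19450, AT3G14395, RALFL33, AT5G67510, AT2G20670, AT3G10610, AT3G50560, AT5G13100, AT5G40450, AT4G37240, AT2G18890 and AT3G16080. AT5G03120 differed by −0.82 ± 0.13 units against nhx5-2 and −0.64 ± 0.13 against nhx6-2 (SE). AT1G19450 differed by −0.66 ± 0.15 against nhx5-2 and −0.78 ± 0.15 against nhx6-2. AT3G14395 differed by −0.76 ± 0.08 against nhx5-2 and −0.49 ± 0.08 against nhx6-2. These and AT2G20670 and AT3G50560 were the 5 largest in both comparisons. The counts moved with single arrays. Against nhx5-2, 8 genes were called without nhx5-2 replicate 2 or without nhx5-2/nhx6-2 replicate 1, 9 without nhx5-2 replicate 3 or nhx5-2/nhx6-2 replicate 2, and 10 without nhx5-2/nhx6-2 replicate 3. Against nhx6-2, 3 were called without nhx6-2 replicate 2 or without nhx5-2/nhx6-2 replicate 1, 5 without nhx5-2/nhx6-2 replicate 2, and 8 without nhx6-2 replicate 1 or nhx5-2/nhx6-2 replicate 3. Lower calls over all probe sets fell in these settings too. In the order named, they fell from 611 to 302, 166, 253, 333 and 277 against nhx5-2. Against nhx6-2 they fell from 484 to 116, 105, 208, 256 and 221. AT3G14395, AT3G50560 and AT2G18890 were called in both comparisons whichever array was left out. Their membership was less stable: leaving out any of 3, 4 and 2 single arrays, in that order, ended it. The rule favours these calls, and nothing is read from them.

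Between nhx5-1/nhx6-1 and nhx5-2/nhx6-2, which carry different alleles, 0 of the 42 genes were called in either direction (limma, 0.123% of all probe sets higher and 0.255% lower in nhx5-1/nhx6-1). At an unadjusted p under 0.05, 3 were higher and 2 lower (5.59% and 6.87%). By their means 21 were lower and 21 higher in nhx5-1/nhx6-1. The smallest adjusted p was 0.0918 for AT5G40450 (0.33 ± 0.08 units, SE, limma), and the differences ran between −0.43 ± 0.11 for AT3G56290 and 0.34 ± 0.13 for AT5G03120. Without nhx5-1/nhx6-1 replicate 2, 3 genes were called lower in nhx5-1/nhx6-1 (limma). They were AT3G56290 (−0.55 units, adjusted p 0.0339, limma), CYTC-2 (−0.42, adjusted p 0.0342) and AT2G44670 (−0.47, adjusted p 0.0389). Over all probe sets 268 were called lower without that array, against 58 with all arrays. The rule held both double knockouts to the same limit, and nothing is read from these counts.

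Between nhx5-2 and nhx6-2, 0 of the 42 genes were called in either direction (limma, 0% of all probe sets higher and 0.0132% lower in nhx5-2). At an unadjusted p under 0.05, 1 was higher in nhx5-2, AT3G14395 (0.27 ± 0.08 units, SE, adjusted p 1, limma), and 0 were lower (1.53% and 1.38% of all probe sets). By their means 32 genes were higher in nhx5-2 than in nhx6-2 and 10 lower, with a median difference of 0.055 units. The rule set 1 limit for both single knockouts, and these misses do not show that the lines are alike.

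By array, the median of the 42 genes relative to the wild type mean was −0.58, −0.59 and −0.77 units on replicates 1, 2 and 3 of nhx5-1/nhx6-1, and −0.67, −0.67 and −0.68 on those of nhx5-2/nhx6-2. It was −0.46, −0.31 and −0.30 on nhx5-2, −0.40, −0.35 and −0.47 on nhx6-2, and 0.032, −0.052 and 0.016 on wild type. The choice of the genes favours this order of double knockouts, single knockouts and wild type. Both arrays of low SD were the lowest of their genotype for most of the genes, nhx5-1/nhx6-1 replicate 3 for 28 of the 42 and nhx5-2 replicate 1 for 35. The 42 genes were bright, with a median wild type level of 1.28 units against −0.41 over the 13367 probe sets, at percentile 91.6 of all probe sets. Without both arrays of low SD 31 of the 42 were called lower in the double than in the single knockouts, 28 of them among the 29. Over all probe sets 2292 were called lower in that fit, against 1782 with all arrays. The rule favours these calls, and nothing is read from the count of 31.

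**Figure D4:**
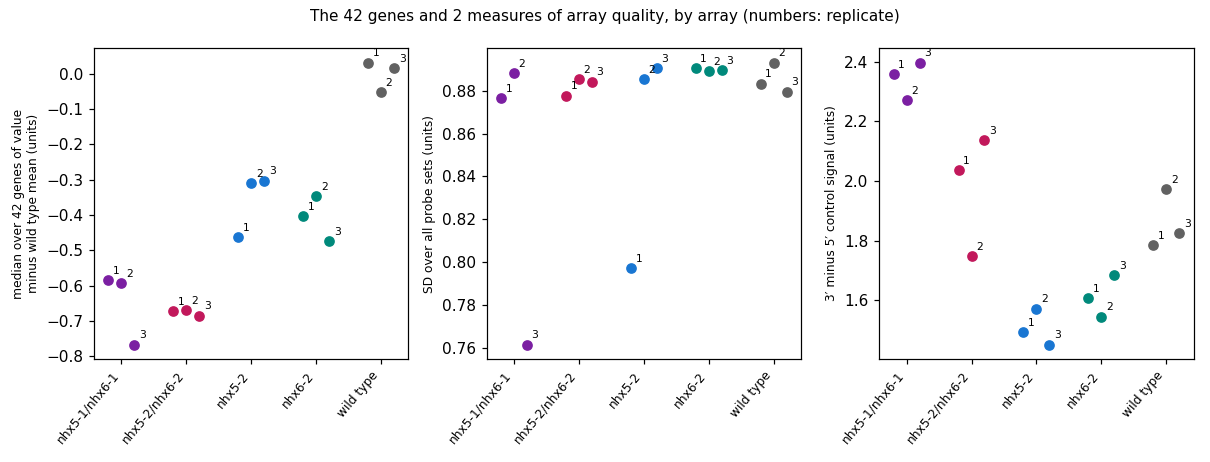
Median over the 42 genes of the value minus the wild type mean, SD over all probe sets, and 3′ minus 5′ signal of the actin and GAPDH controls (y axes, deposited units), with 1 point per array by genotype. The SD is lowest on nhx5-1/nhx6-1 replicate 3 (0.762) and nhx5-2 replicate 1 (0.797), and the 3′ minus 5′ signal is highest in nhx5-1/nhx6-1.

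The 3′ minus 5′ signal of the actin and GAPDH controls, a measure that rises as RNA is degraded or copied incompletely, was 2.34 ± 0.06 units in nhx5-1/nhx6-1, 1.98 ± 0.20 in nhx5-2/nhx6-2, 1.51 ± 0.06 in nhx5-2, 1.61 ± 0.07 in nhx6-2 and 1.86 ± 0.10 in wild type (SD, n = 3 each). All 6 double knockout arrays, at 1.75 or more, lay above all 6 single knockout arrays, at 1.69 or less, and the wild type arrays, at 1.79 to 1.97, lay above the single knockouts too. With this signal as a covariate, 0 of the 42 genes were called lower in the double than in the single knockouts, and 1 of all 22746 probe sets was called (limma). The median step was −0.20 units with the covariate and −0.27 without it, its median standard error was 0.22 and 0.07, and 34 of the 42 steps were negative with it. RNA quality and genotype cannot be told apart in the step, nor in the differences of the single knockouts from wild type.

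Of 4 guard cell markers 2 were measured. AT1G22690 was lower than wild type by −0.46 units in nhx5-1/nhx6-1 and −0.98 in nhx5-2/nhx6-2 (adjusted p 0.0169 and 0.000157, limma), with a step of −0.53 units (adjusted p 0.000754, limma). FMA, a guard cell regulator, lay between −0.31 and −0.16 on all arrays, with a step of −0.050 units that did not pass (adjusted p 0.29, limma). With the covariate for RNA quality 0 of all probe sets, AT1G22690 included, were called lower in the double than in the single knockouts. The part of guard cells in the results was not tested.

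At the edge of the rule, AT1G44000 lay at −0.251 units in nhx6-2, AT5G15740 at −0.403 in nhx5-2/nhx6-2 and PRA1.B6 at −0.255 in nhx5-2. Just outside, with all other limits met, AT1G23030 lay at −0.249, IQD24 at −0.246 and AT3G15310 at −0.243 in nhx5-2. Rises of the same sizes in all 4 knockouts were met by 15 probe sets, against 50 for the falls before names were left out. The numbers were 8 and 62 after a shift of all arrays to 1 median, and 17 and 39 after quantile normalization. Of the 42 genes, 21 met the rule whichever single array was left out, and 20 of these also met it without both arrays of low SD and after quantile normalization. Chromosome 3 held 12 of the 42 (0.437% of its measured probe sets), chromosome 5 held 11 (0.366%), chromosome 4 held 7 (0.357%), chromosome 2 held 5 (0.227%) and chromosome 1 held 7 (0.203%). The closest pair, CYTC-2 and ATSPS4F, lay 10 genes apart.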

How the data were processed

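Total RNA of rosette leaves was isolated with a Qiagen method, and biotin-labelled RNA made from 6 µg was hybridized to Affymetrix Arabidopsis arrays, per the labels' protocols. The authors deposited a score per probe set and array, log-like and centred near 0 on every array. The sources used here give no summarization, normalization or log base for it, and it was used as deposited. Spike-in slopes used 9 probe sets per array and assumed nominal amounts of 1.5, 5, 25 and 100 pM.

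Of 22810 probe sets, 64 controls were left out of the tests. All 15 arrays entered 1 linear model of genotype means (limma 3.58.1, R 4.3.3, functions lmFit and eBayes), with Benjamini-Hochberg adjustment over 22746 probe sets and a threshold of 0.05. The number of arrays limits the precision.

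The members and lists were chosen with earlier results of these data known. Genes named singly are the 20 with the largest mean difference, the 5 lowest and highest calls of each tested comparison, those at the limits and those with a second probe set; the rest were named after their values were seen, to account for each gene. Probe sets were named from the platform annotation and the TAIR10.1 gene table, which gave a symbol for 4 of the 42 genes. Roles of the others are background knowledge. Of 27 gene families searched by name in these tables, 20 had measured probe sets (172 in all), with 0 of the 42. The search read symbols and synonyms, so it could hardly find genes known by a locus tag alone. It missed the linker histone gene AT2G30620, for example, and the 0 does not show that these families are absent. Lists of epidermis, vascular, trichome, meristem, flower and senescence markers had 0 measured genes. Promoter and protein sequences were not used here. Alternatives were a shift to equal medians, quantile normalization, leaving out arrays, group medians, a replicate block, a filter on dim probe sets, an intensity trend and a covariate, the 3′ minus 5′ control signal.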

Additional observations from a re-analysis of the deposited data

How the results depend on the processing

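The number of genes that met the rule was 54 after a shift of all arrays to 1 median (42 of them shared), 31 after quantile normalization (31 shared), 56 with group medians (37 shared), 29 without both arrays of low SD (27 shared), and 32 to 61 with 1 array left out. With a covariate for the 3′ minus 5′ control signal the counts of genes called lower were 0 for the double against the single knockouts, 0 for nhx5-2/nhx6-2 against nhx5-2 and 0 against nhx6-2. Over all 22746 probe sets 0, 0 and 7 were called lower in that fit. The step turned to 0.0446 for AT1G10020, 0.216 for AT3G60320 and 0.091 for AT3G49990, none past the threshold. The cause was not tested. Leaving out 1 array gave 22 to 32 genes lower in the double than in the single knockouts, 8 to 22 in nhx5-2/nhx6-2 against nhx5-2, 3 to 18 against nhx6-2, and 0 to 3 lower in nhx5-1/nhx6-1 than in nhx5-2/nhx6-2. The calls over all probe sets moved with the array left out as well. Of the calls among the 42 genes, 22 of 29, 8 of 16 and 3 of 13 held without each array in turn. Without both arrays of low SD 31, 24 and 19 were called. Over all probe sets 2292, 1279 and 1298 were called lower there, against 1782, 611 and 484 with all arrays. The rule favours the calls among the 42 genes, and nothing is read from their number. The replicate numbers of the labels name no shared batch: over 30 pairs with the same number, deviations from the group means correlated with r between −0.361 and 0.354, so they were not used as pairs. With the number as a replicate block 29 genes were called in the double against the single knockouts (27 shared), 14 in nhx5-2/nhx6-2 against nhx5-2 and 10 against nhx6-2. Over all 22746 probe sets 1719, 530 and 394 were called lower in that fit. Genes near the level without a target, such as AT4G37240, are limited by signal over background.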
